A study of Mus musculus with 18 samples.

Results

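Integrins are the cell surface receptors through which epithelial cells hold on to the basement membrane, and laminins are the main adhesive proteins of that membrane. The measured mouse integrin alpha and beta chain genes (Itga, Itgb) and laminin alpha, beta and gamma chain genes (Lama, Lamb, Lamc) with a numbered or lettered chain symbol were taken, whatever their values. The rule found 36 of the 19938 genes measured, 26 integrin chains and 10 laminin chains, each read from its single-gene probe set, or from the brightest on average where it had several.

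The arrays measured RNA of mouse mammary cells, 3 arrays in each of 6 groups, in an in vitro model in which erbB2-positive tumor cells were grown with normal mammary cells. Comma-D, a normal mouse mammary epithelial line described as erbB2- and phospho-erbB2-, was grown alone in DMEM/F12 with 2% fetal bovine serum, 10 ug/ml insulin and 5 ng/ml EGF. MMTV-neu, a mammary tumor line in which the mouse mammary tumor virus promoter drives the neu (erbB2) oncogene, is described as erbB2+ and phospho-erbB2+ and was grown alone in DMEM with 10% serum, so that line and medium cannot be told apart. The co-cultures of both lines, at 1:50 and at 1:1, were kept in the Comma-D medium, then dissociated with trypsin and separated on a magnetic column by an erbB2 antibody into an erbB2+ and an erbB2- fraction. Both erbB2- fractions are called normal in the sample descriptions. The 1:1 erbB2+ fraction is called cancer and phospho-erbB2+, and the 1:50 erbB2+ fraction is called redirected and phospho-erbB2-. Which line makes up the 50 parts is not assumed here. The descriptions do not say that the 3 arrays of a group came from separate cultures, so p-values measure the spread between these samples, which may be technical. A sorted fraction is a bulk sample, in which fewer cells of a type and less RNA per cell cannot be told apart.

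An integrin is a pair of 1 alpha and 1 beta chain, and the pair decides the ligand. Alpha-3, alpha-6 and alpha-7 with beta-1, and alpha-6 with beta-4, bind laminin. Alpha-6 beta-4 is the receptor of the hemidesmosome, the junction that ties the keratin network of basal mammary cells to laminin-332 underneath. Alpha-5 beta-1 and the alpha-v integrins bind fibronectin, vitronectin and other proteins through the RGD sequence. In the mammary gland the beta-1 and alpha-6 chains are abundant in the basal layer, and laminin contact through beta-1 is needed for the polarity of luminal cells and for milk protein expression.

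The spread of values differed between groups, and this touches every level below. The standard deviation over the genes of an array was 1.97 to 1.99 in Comma-D, 1.51 to 1.55 in MMTV-neu and 1.61 to 1.71 in the 1:1 erbB2+ fraction. It was 1.85 to 1.96 in the 1:50 erbB2+ fraction and 1.75 to 1.91 in the 1:1 erbB2- fraction, with replicate 1 narrowest in both. Basal epithelial markers (7 genes, Krt5 and Krt14 among them) had mean levels per array of 9.49 to 9.51 in Comma-D, 7.62 to 7.78 in MMTV-neu, 9.82 to 10.22 in the 1:50 erbB2+ fraction and 8.76 to 9.20 in the 1:1 erbB2+ fraction. At least 6 of the 7 basal and 7 of the 8 luminal markers exceeded the array medians in every group. Of the 8 fibroblast markers 5 or 6 did so too, so this level does not set epithelial cells apart from others. The epithelial markers under the medians were Myh11 in Comma-D (5.97) and the 1:50 erbB2- fraction (5.94), Krt19 in Comma-D and both erbB2- and 1:50 erbB2+ fractions (5.43 to 6.04), and the epithelial adhesion molecule Epcam in MMTV-neu (5.88, against 9.53 in Comma-D).

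Levels are deposited log2 values, so that a difference of 1 is 2-fold, and a gene is called where limma's Benjamini-Hochberg adjusted p over all genes is under 0.05. Of the 36 genes, 19 exceeded the array medians (6.01 to 6.48) in all 6 groups, 9 in some and 8 in none. The 8 were Itga4, Itgb6, Lama2 and the leukocyte chains Itgal, Itgam, Itgax, Itgae and Itgb2. Values at or under the array medians may hold little signal of the gene itself, which was not tested.

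**Figure D1:**
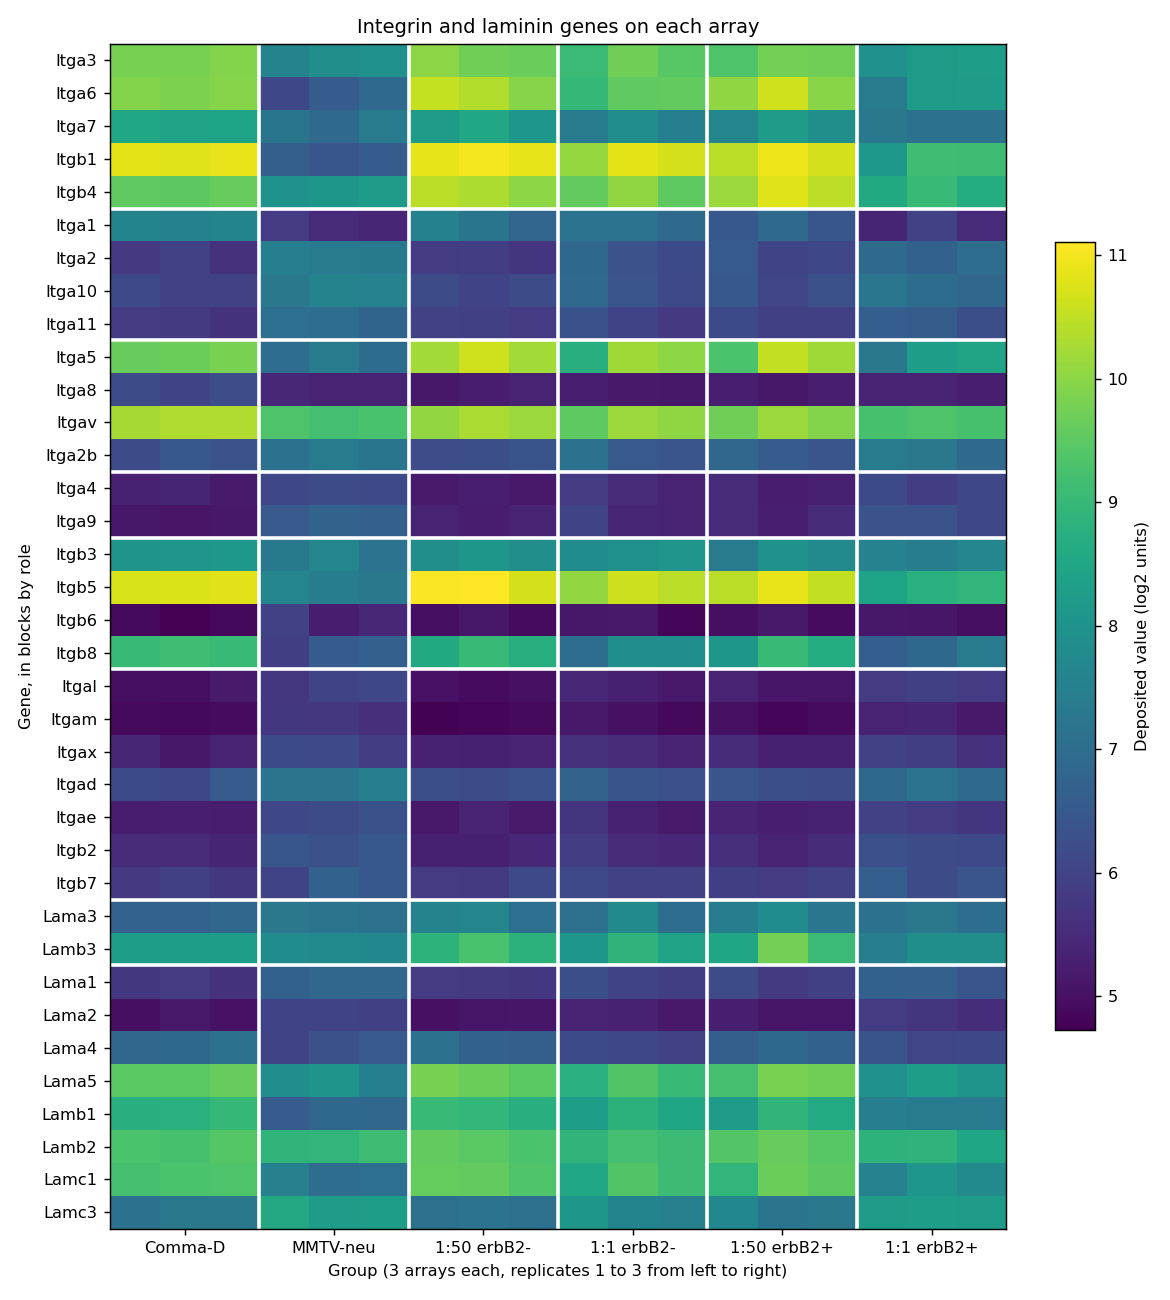
Deposited log2 level of the 36 integrin and laminin genes (vertical axis, grouped by role) on each of the 18 arrays (horizontal axis, grouped by sample group); the colour gives the level. The laminin-binding chains are low in the MMTV-neu arrays and intermediate in the 1:1 erbB2+ arrays, while most leukocyte chains stay near the bottom of the scale in all groups.

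The unmixed lines differed in every integrin and laminin gene. MMTV-neu was higher than Comma-D in 18 and lower in 18 of the 36 genes, where 86.8% of all genes were called (56.4% higher, 30.4% lower). With a change of at least 2-fold, 7 genes rose and 13 fell (37.7% of all genes in either direction, 3800 of them higher and 3707 lower), and the 13 include all laminin-binding receptor chains and the laminin chains Lamc1, Lamb1 and Lama5. The median difference was 0.03 over the 36 genes and 0.40 over all genes tested. When each array was instead centred on 9 reference genes, the median of all genes moved up by 2.18 log2 units in this comparison, 27 of the 36 genes were called higher and 4 lower, and the higher share of all called genes went from 65.0% to 95.8%. Directions below are those of the deposited scale. Of the 18 genes that fell, 13 turned under centring (Itga3, Itga7, Itgb4, Itga1, Itga8, Itgav, Itgb3, Lamb3, Lama4, Lama5, Lamb1, Lamb2 and Lamc1) and 3 under quantile normalization (Itgav, Lamb3 and Lamb2). The 18 that rose did not turn under quantile normalization. They could not turn under centring, which moved every difference in this comparison up.

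The laminin-binding chains moved one way: 5 of 5 fell in MMTV-neu against Comma-D (30.4% of all genes fell), with a median difference of -2.06 on the deposited scale and 3 of the 5 turning under centring. All but Itga7 are among the brightest genes, the highest of 10 bins of level, where the median over all genes was -1.44. Basal markers fell beside the laminin-binding chains (5 of 7 lower, 1 higher, with 2 turning under centring), and their part in the result was not tested. Itgb1 encodes beta-1, the chain shared by most integrins outside blood cells. Its levels were 10.83, 10.79 and 10.90 in Comma-D and 6.67, 6.43 and 6.59 in MMTV-neu. In the 1:50 co-culture they were 10.88, 11.03 and 10.87 in the erbB2- and 10.44, 10.94 and 10.70 in the erbB2+ fraction. In the 1:1 co-culture they were 10.10, 10.85 and 10.69 in the erbB2- and 8.12, 9.14 and 9.12 in the erbB2+ fraction. All MMTV-neu arrays were lowest, the 1:1 erbB2+ arrays came next without overlap, and the remaining 12 arrays lay together at the top. The MMTV-neu minus Comma-D difference was -4.28 (SE 0.23, limma adjusted p = 1.17e-10), a 19.4-fold lower level.

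Itga6 encodes alpha-6, the chain common to alpha-6 beta-1 and the hemidesmosome receptor. It measured 9.92, 9.83 and 9.95 in Comma-D and 6.12, 6.57 and 6.91 in MMTV-neu. The 1:50 erbB2- arrays gave 10.53, 10.38 and 9.96, and the 1:50 erbB2+ arrays 10.05, 10.63 and 9.97. The 1:1 erbB2- arrays gave 8.98, 9.55 and 9.56, and the 1:1 erbB2+ arrays 7.37, 8.19 and 8.21. The order was MMTV-neu, 1:1 erbB2+, 1:1 erbB2- and then the other groups, with no overlap between these steps. MMTV-neu was lower than Comma-D by 10.3-fold (difference -3.37, SE 0.25, limma adjusted p = 5.92e-09).

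Itgb4 encodes beta-4, which pairs only with alpha-6 and carries the long tail that anchors the hemidesmosome. Comma-D gave 9.55, 9.50 and 9.61 and MMTV-neu 7.98, 8.10 and 8.22. The 1:50 fractions gave 10.45, 10.32 and 10.03 (erbB2-) and 10.15, 10.78 and 10.48 (erbB2+). The 1:1 fractions gave 9.56, 10.05 and 9.53 (erbB2-) and 8.60, 9.02 and 8.67 (erbB2+). Here the arrays of both 1:50 fractions exceeded every Comma-D array by a clear margin, where those of Itga6 did so narrowly (9.96 against 9.95) and those of Itgb1 overlapped. The MMTV-neu minus Comma-D difference was -1.45 (SE 0.17, limma adjusted p = 6.63e-07), smaller than that of its partner Itga6.

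Itga3, the alpha chain of the epithelial laminin-332 receptor alpha-3 beta-1, fell by 2.06 from Comma-D (9.80, 9.81 and 9.93) to MMTV-neu (7.57, 7.87 and 7.92), with SE 0.16 and limma adjusted p = 1.13e-08. Its erbB2+ arrays were 9.34, 9.78 and 9.72 at 1:50 and 7.95, 8.20 and 8.29 at 1:1. The 1:1 erbB2+ arrays lay just above the MMTV-neu arrays and far below the 1:50 ones. Itga7, an alpha chain best known from muscle, went from 8.56, 8.41 and 8.43 to 7.19, 6.90 and 7.37 (difference -1.31, SE 0.16, limma adjusted p = 1.41e-06), and its 1:1 erbB2+ arrays (7.27, 7.14 and 7.09) overlapped those of MMTV-neu. Under centring on the reference genes Itgb1 (-2.10) and Itga6 (-1.19) stayed lower in MMTV-neu while Itga3 (0.13), Itga7 (0.87) and Itgb4 (0.73) turned; under quantile normalization all of the laminin-binding chains stayed lower.

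**Figure D2:**
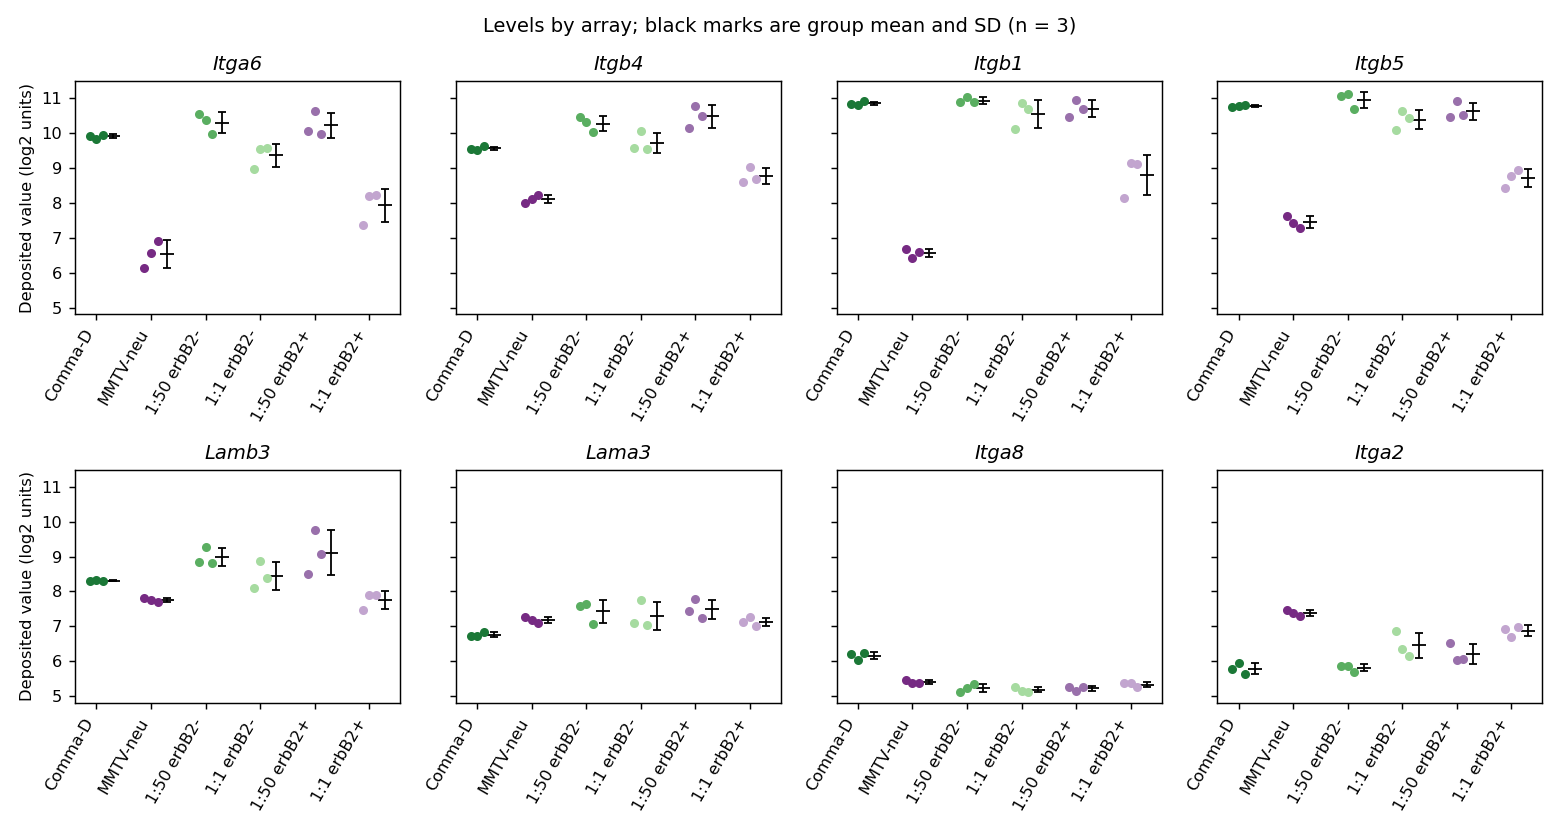
Deposited log2 level (vertical axis) of 8 integrin and laminin genes on each array, by group (horizontal axis); points are arrays and the bars are the mean ± SD of 3 arrays. For Itga6, Itgb1 and Itgb5 the MMTV-neu arrays are lowest and the 1:1 erbB2+ arrays next, while the 1:50 erbB2+ arrays lie beside the Comma-D arrays or above them.

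Among receptors for fibronectin and vitronectin, the abundant chains fell in MMTV-neu as well. Itgb5, which pairs with alpha-v to bind vitronectin, measured 10.73, 10.77 and 10.81 in Comma-D and 7.63, 7.43 and 7.27 in MMTV-neu. Its arrays in the 1:50 erbB2+ fraction were 10.45, 10.90 and 10.51, against 8.42, 8.77 and 8.92 in the 1:1 erbB2+ fraction. The 1:1 erbB2+ arrays fell between the lines without touching either. The MMTV-neu minus Comma-D difference was -3.33 (SE 0.17, limma adjusted p = 5.73e-11).

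Itga5, the alpha chain of the classical fibronectin receptor, measured 9.63, 9.67 and 9.82 in Comma-D and 7.03, 7.37 and 6.98 in MMTV-neu. The 1:50 erbB2+ arrays gave 9.31, 10.52 and 10.20 and the 1:1 erbB2+ arrays 7.28, 8.27 and 8.46. Replicate 1 was the lowest array in both fractions, and the spread of Itga5 within groups was the widest of all 36 genes in the fit. The line difference was -2.58 (SE 0.36, limma adjusted p = 4.12e-06); under centring on the reference genes it was -0.40 and not called.

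Itgb8, which with alpha-v binds and activates latent TGF-beta, measured 9.04, 9.14 and 9.06 in Comma-D and 5.90, 6.58 and 6.68 in MMTV-neu. Its arrays in the 1:1 erbB2- fraction were 7.03, 7.86 and 7.85, well under the 8.60, 9.05 and 8.71 of the 1:50 erbB2- fraction. The drop in the 1:1 erbB2- fraction against Comma-D (-1.50, SE 0.26, limma adjusted p = 0.000933) was the largest of any integrin or laminin gene in that comparison. Between the lines Itgb8 differed by -2.70 (SE 0.26, limma adjusted p = 1.14e-07).

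Itgav, the alpha-v chain itself, varied less: 10.24, 10.36 and 10.33 in Comma-D, 9.34, 9.19 and 9.28 in MMTV-neu and 9.24, 9.34 and 9.26 in the 1:1 erbB2+ fraction, which overlapped MMTV-neu. Its line difference of -1.04 (SE 0.14, limma adjusted p = 2.43e-06) turned to 1.14 under centring and to 0.031 under quantile normalization. The beta-3 chain Itgb3 was lower in MMTV-neu by a difference of -0.71, with group means of 8.08 and 7.37, which turned to 1.48 under centring. The platelet chain Itga2b (0.91) and Itgb6, the beta chain of an epithelial alpha-v receptor (0.71), were higher, Itgb6 at levels under the array medians in all groups. None of the 3 platelet markers measured exceeded the array medians in any group.

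Itga8, an alpha chain of RGD-binding receptors in contractile and mesenchymal cells, separated Comma-D from all other groups. It measured 6.20, 6.04 and 6.23 in Comma-D, against the Comma-D array medians near 6.03. All 15 other arrays lay between 5.13 and 5.47, under their medians. It fell against Comma-D in both 1:50 fractions (-0.92, limma adjusted p = 1.3e-05 in erbB2-, and -0.94, adjusted p = 6.33e-06 in erbB2+) and in the 1:1 erbB2- fraction (-0.98, adjusted p = 2.42e-06), each with SE 0.09. The line difference of Itga8 was -0.75 and turned to 1.43 under centring. Of the 8 fibroblast markers, 2 were lower in the 1:50 erbB2+ fraction than in Comma-D (Pdgfra by -2.31 and Dcn by -3.42), 1 was higher (Col1a2, 0.66) and 5 were not called, with a median of -0.10. Their mean level per array was 7.93 to 8.01 in Comma-D and 7.24 to 7.40 in that fraction, with 6 of the 8 above the array medians in both, and their part in the Itga8 result was not tested.

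The collagen receptors moved in opposite ways. Itga1, the alpha chain of a collagen IV-binding receptor, measured 7.61, 7.54 and 7.61 in Comma-D and 5.86, 5.51 and 5.42 in MMTV-neu, a difference of -1.99 (SE 0.19, limma adjusted p = 7.89e-08) that turned to 0.19 under centring. Itga2, the alpha chain of the epithelial collagen I receptor, measured 5.79, 5.95 and 5.62 in Comma-D and 7.47, 7.38 and 7.30 in MMTV-neu. Itga2 thus exceeded the array medians in MMTV-neu and lay under them in Comma-D, and rose by 3.03-fold (difference 1.60, SE 0.16, limma adjusted p = 1.67e-07).

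Itga10 and Itga11, collagen receptor chains of cartilage and of fibroblasts, also rose (1.43 and 1.19). Itga10 went from 6.14, 5.98 and 5.99 in Comma-D to 7.28, 7.57 and 7.54 in MMTV-neu. In the 1:1 erbB2+ fraction Itga2 was 6.93, 6.71 and 6.99, below every MMTV-neu array and above every Comma-D array. Of Itga4 and Itga9, which bind VCAM-1, tenascin-C and related ligands, both rose in MMTV-neu; Itga9 did so by 1.54 from 5.14, 5.06 and 5.13 to 6.50, 6.76 and 6.69.

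The leukocyte integrin chains, Itgal, Itgam, Itgax, Itgad, Itgae, Itgb2 and Itgb7, are restricted to blood cells in the body. All 7 of 7 were called higher in MMTV-neu, by 0.58 to 1.03, but 5 of them stayed under the array medians in every group. The 13 leukocyte markers gave mean levels per array of 5.43 to 5.45 in Comma-D and 6.24 to 6.42 in MMTV-neu, and 2 of them exceeded the array medians in Comma-D and 4 in MMTV-neu. The differences of the 7 chains deviated by -0.36 to 0.60 from the median difference of all genes at their level. Whether leukocyte RNA, array background or scaling set these values was not tested.

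The promoter windows of the members that fell and rose most between the lines are shown because these genes carry the largest differences between Comma-D and MMTV-neu for which a window was held. The 4 largest fallers and the 2 largest risers with a RefSeq promoter at the edge of their gene were taken, and the 250 bases before the annotated start are printed 5′ to 3′ on the strand of the gene (RefSeq, build GRCm38.p6). Capitals mark GGGCGG, the GC box core, or its complement CCGCCC. The windows are Itgb1 at chr8:128685404-128685653 (plus strand), Itgb5 at chr16:33829415-33829664 (plus), Itgb8 at chr12:119238277-119238526 (minus), Itga5 at chr15:103366792-103367041 (minus), Itga2 at chr13:114932101-114932350 (minus) and Itga10 at chr3:96645334-96645583 (plus).
Itgb1: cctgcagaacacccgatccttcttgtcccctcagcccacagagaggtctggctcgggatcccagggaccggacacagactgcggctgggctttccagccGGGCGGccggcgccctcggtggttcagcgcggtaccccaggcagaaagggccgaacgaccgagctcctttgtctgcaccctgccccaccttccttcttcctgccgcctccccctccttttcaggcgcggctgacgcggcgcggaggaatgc
Itgb5: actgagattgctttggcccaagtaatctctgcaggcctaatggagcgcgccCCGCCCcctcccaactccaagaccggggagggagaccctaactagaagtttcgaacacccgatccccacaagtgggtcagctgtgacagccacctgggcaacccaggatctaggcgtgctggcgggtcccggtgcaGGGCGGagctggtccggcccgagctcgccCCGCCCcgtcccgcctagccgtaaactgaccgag
Itgb8: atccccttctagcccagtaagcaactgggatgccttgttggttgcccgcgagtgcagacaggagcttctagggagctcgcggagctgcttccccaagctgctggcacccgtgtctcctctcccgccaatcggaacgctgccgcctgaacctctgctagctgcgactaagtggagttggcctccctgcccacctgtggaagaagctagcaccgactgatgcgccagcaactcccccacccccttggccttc
Itga5: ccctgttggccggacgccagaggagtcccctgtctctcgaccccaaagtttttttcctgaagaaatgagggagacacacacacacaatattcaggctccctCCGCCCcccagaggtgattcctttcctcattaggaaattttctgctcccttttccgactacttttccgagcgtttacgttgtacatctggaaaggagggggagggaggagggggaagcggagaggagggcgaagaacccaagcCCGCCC
Itga2: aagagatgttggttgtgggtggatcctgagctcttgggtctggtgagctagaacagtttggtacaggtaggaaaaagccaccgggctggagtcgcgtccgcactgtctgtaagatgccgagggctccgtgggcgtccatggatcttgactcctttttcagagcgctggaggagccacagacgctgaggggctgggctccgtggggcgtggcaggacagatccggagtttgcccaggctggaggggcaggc
Itga10: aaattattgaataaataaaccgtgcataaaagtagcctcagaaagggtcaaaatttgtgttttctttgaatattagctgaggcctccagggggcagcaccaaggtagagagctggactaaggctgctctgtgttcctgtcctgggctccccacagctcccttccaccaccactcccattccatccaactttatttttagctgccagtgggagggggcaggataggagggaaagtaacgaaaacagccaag
The GC box core occurred 1 time before Itgb1, 3 times before Itgb5 and 2 times before Itga5, and 0 times before Itgb8, Itga2 and Itga10. The AP-1 motif TGANTCA, read on both strands like the GC box, was found 0 times in these 6 windows. Of 32851 windows of 27025 genes, 32.7% held the GC box core and 6.75% the AP-1 motif; of the 26 windows found for 23 of the members, 34.6% and 3.85% did. A match is a run of letters and is no evidence of a bound factor.

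The laminins, the ligands made by the cells themselves, were split between the lines: 6 of 10 fell in MMTV-neu and 4 rose on the deposited scale, with all 6 that fell turning under centring and Lamb3 and Lamb2 also under quantile normalization. Lama3 and Lamb3 are chains of laminin-332, the anchoring laminin of hemidesmosomes. Lamb3 measured 8.28, 8.31 and 8.31 in Comma-D, 7.80, 7.76 and 7.69 in MMTV-neu, 8.84, 9.29 and 8.81 in the 1:50 erbB2- and 8.49, 9.76 and 9.07 in the 1:50 erbB2+ fraction. The 1:1 arrays gave 8.09, 8.87 and 8.39 in the erbB2- and 7.46, 7.90 and 7.88 in the erbB2+ fraction. The 1:50 erbB2+ arrays all exceeded the Comma-D, MMTV-neu and 1:1 erbB2+ arrays, and the 1:1 erbB2+ arrays lay around those of MMTV-neu. Against MMTV-neu the 1:50 erbB2+ fraction was higher by 1.36 (SE 0.25, limma adjusted p = 8.98e-05), which turned to -0.57 under centring.

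On the deposited scale Lama3 and its partner Lamb3 had opposite signs between the lines. It measured 6.72, 6.73 and 6.84 in Comma-D, the lowest group, and 7.27, 7.18 and 7.08 in MMTV-neu. All co-culture groups were at or above MMTV-neu in their means, with 7.43 in the 1:50 erbB2-, 7.29 in the 1:1 erbB2- and 7.48 in the 1:50 erbB2+ fraction, except the 1:1 erbB2+ fraction at 7.13. The line difference was 0.41 for Lama3 and -0.55 for Lamb3, both called (limma adjusted p = 0.0463 and 0.0446). Under centring both were positive (2.60 and 1.63), and under quantile normalization Lamb3 stood at 0.022 and was not called.

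Lama5, Lamb1 and Lamc1 encode chains of laminin-511 and laminin-111, the general epithelial laminins. Lamc1 measured 9.22, 9.29 and 9.35 in Comma-D, 7.49, 7.01 and 7.06 in MMTV-neu, 8.92, 9.67 and 9.50 in the 1:50 erbB2+ and 7.55, 8.09 and 7.78 in the 1:1 erbB2+ fraction. Lamb1 measured 8.75, 8.77 and 8.99 in Comma-D and 6.56, 6.86 and 6.83 in MMTV-neu. Lama5 measured 9.48, 9.47 and 9.62 in Comma-D and 7.86, 8.02 and 7.49 in MMTV-neu. In each of these genes the lines were far apart relative to the spread of their arrays. The differences were -2.10 for Lamc1 (SE 0.21), -2.08 for Lamb1 (SE 0.16) and -1.74 for Lama5 (SE 0.18), with limma adjusted p of 1.54e-07, 7.18e-09 and 1.53e-07; under centring they turned to 0.085, 0.10 and 0.45.

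Lamb2, the other broadly used beta chain, moved little: its group means ran from 8.74 in the 1:1 erbB2+ to 9.49 in the 1:50 erbB2+ fraction, and the lines differed by -0.34 (SE 0.12, limma adjusted p = 0.0134), which turned to 1.84 under centring and 0.68 under quantile normalization. Lamc3, a gamma chain of low abundance in epithelia, went the other way, from 7.11, 7.28 and 7.29 in Comma-D to 8.57, 8.25 and 8.30 in MMTV-neu (1.15, SE 0.15, limma adjusted p = 2.24e-06). In the 1:1 erbB2+ fraction Lamc3 measured 8.23, 8.27 and 8.21, next to MMTV-neu, and in the 1:50 erbB2+ fraction 7.70, 7.18 and 7.27, next to Comma-D. Lama1 (1.04) and Lama2 (0.93) also rose between the lines, Lama2 under the array medians throughout, and the endothelial and mesenchymal chain Lama4 fell (-0.65, turning to 1.53 under centring).

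Over all genes, the sign of the line difference depended on level, and the integrin and laminin genes were read against that. Genes were ranked by their mean over 18 arrays and put into 10 bins of equal size. The median MMTV-neu minus Comma-D difference was 0.43 in the lowest bin, 0.95 in bin 5 and -1.44 in the highest. Itgb1 deviated from the median of its bin by -2.84, Itga1 by -2.42, Itgb8 by -2.12, Itga6 by -1.92 and Itgb5 by -1.88. Itgb4 deviated by -0.01, and Lamc3 and Lamb2 lay above their bins by 1.30 and 1.10. The line difference of Itgb4 was thus that of genes of like level, while Itgb1 and Itga6 were lower than such genes.

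**Figure D3:**
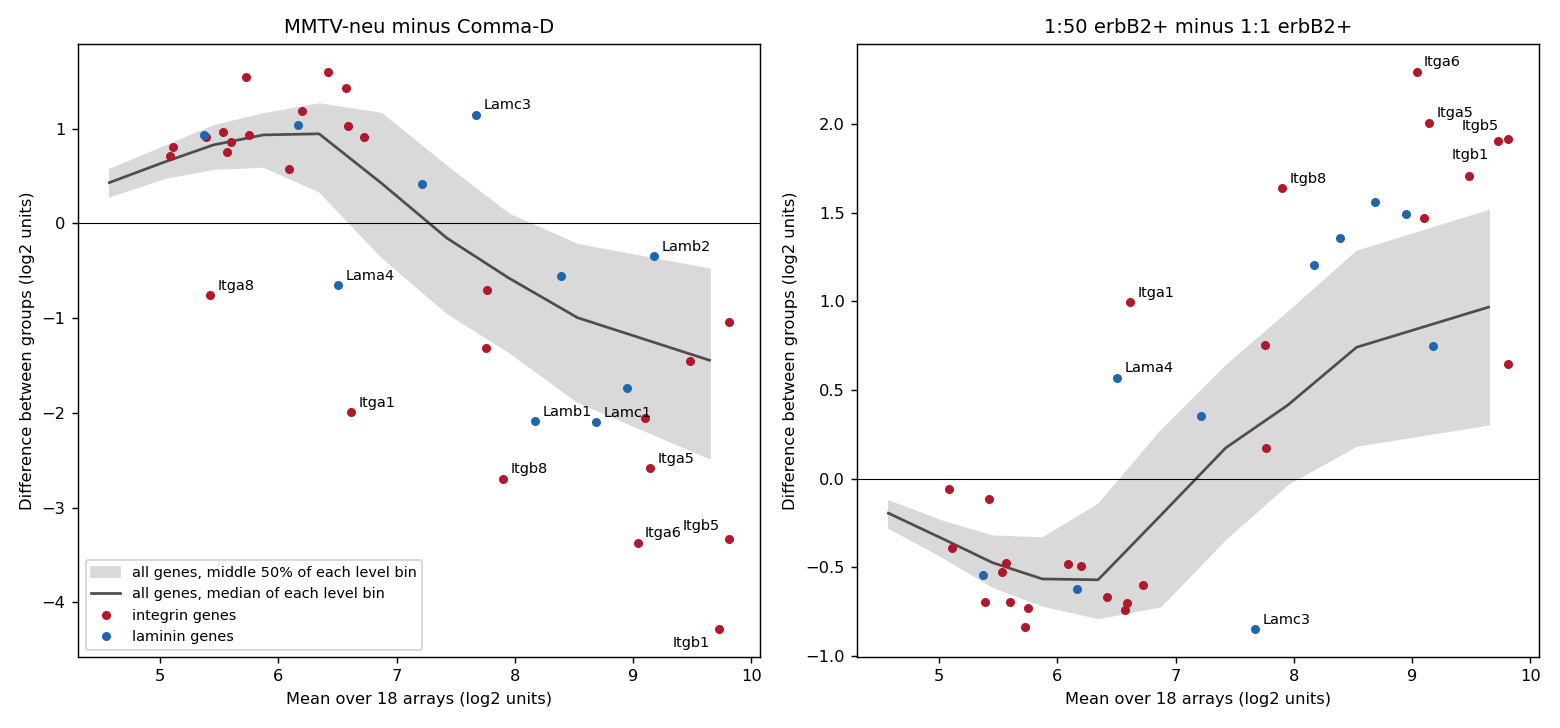
Difference between groups in log2 units (vertical axis) against the mean deposited level over 18 arrays (horizontal axis) for the 36 genes, for MMTV-neu minus Comma-D (left) and 1:50 erbB2+ minus 1:1 erbB2+ (right); the line and band are the median and middle 50% of all genes in each of 10 bins of level. Itgb1, Itga6 and Itgb5 lie outside the band on both sides, below it on the left and above it on the right; centring on reference genes shifts all points and the band together.

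The 1:50 erbB2+ fraction, called redirected in the descriptions, differed widely from MMTV-neu, over all genes as well as in adhesion genes. Of the 36 genes, 17 were higher and 17 lower than in MMTV-neu, where 83.4% of all genes were called (25.8% higher, 57.6% lower). All laminin-binding chains were higher, 5 of 5 on the deposited scale, and all leukocyte chains lower, 7 of 7. All genes in the highest bin of level had a median of 1.22 here. Basal markers were 5 of 7 higher and 1 lower (median 3.03) and leukocyte markers 12 of 13 lower and 1 higher in the same comparison, and their part was not tested. Under centring 10 of the 17 that were higher turned: Itga3 (-0.10), Itga7 (-1.16), Itga1, Itgav, Itgb3, Lamb3, Lama4, Lama5, Lamb1 and Lamb2. Under quantile normalization Itgav (-0.22) and Lamb2 (-0.31) turned. The largest differences were those of Itgb1 (4.13), Itga6 (3.69) and Itgb5 (3.18), followed by Itga5 (2.88) and Itgb4 (2.37, SE 0.17). Itga8 and Lama3 were not called. Under centring the all-gene median shifted by -1.93 and there were 5 genes higher and 26 lower, with the higher share of all called genes going from 30.9% to 3.63%.

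The 1:1 erbB2+ fraction, called cancer, was closer to MMTV-neu: 5 genes were higher and 6 lower, where 18.3% of all genes were called (4.21% higher, 14.1% lower). The 5 were Itgb1 (2.23, SE 0.23, limma adjusted p = 5.58e-06), Itga6 (1.39, SE 0.25, adjusted p = 0.00181), Itgb5 (1.26, SE 0.17, adjusted p = 0.00011), Itgb4 (0.66, SE 0.17, adjusted p = 0.0147) and Lamb1 (0.64, SE 0.16, adjusted p = 0.0117). Itga2 (-0.51), Itga11, Itgb6, Itgam, Itgae and Lama2 were lower. Under centring the all-gene median shifted by -1.04, with 1 gene higher and 29 lower (higher share of all called genes 23.0% to 0.927%), with Itgb4 at -0.37 and Lamb1 at -0.39; quantile normalization gave 8 higher and 4 lower (36.3%). Without 1 array the count of 11 went to 7 (without MMTV-neu replicate 2), 6 (without 1:1 erbB2+ replicate 2) and 5 (without 1:1 erbB2+ replicate 3).

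Set against Comma-D, which shared its medium, the 1:50 erbB2+ fraction had few differences in these genes. It was higher in 2 and lower in 2 of 36, where 5.71% of all genes were called (1.17% higher, 4.54% lower). Itgb4 rose by 0.92 (SE 0.17, limma adjusted p = 0.00356) and Lama3 by 0.72 (SE 0.19, adjusted p = 0.0302), the beta chain of the hemidesmosome receptor and the alpha chain of its ligand. Itga1 fell by 0.97 (SE 0.19, adjusted p = 0.00535) and Itga8 fell by 0.94. Lamb3, a beta chain of laminin-332, had a difference of 0.81 (SE 0.25, adjusted p = 0.0637) that was not called, although its arrays did not overlap with Comma-D. For the main partner chains the intervals bound the difference: Itgb1 -0.15 (95% interval -0.62 to 0.33), Itgb5 -0.15 (-0.50 to 0.20) and Itga6 0.32 (-0.21 to 0.84). So where Itgb1, Itgb5 and Itga6 differed from MMTV-neu by over 3 log2 units, the intervals against Comma-D stayed within 1 log2 unit.

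Under centring (a shift of 0.25 in the median of all genes, with 3 genes higher and 0 lower, and the higher share of all called genes going from 20.5% to 46.2%) Lamb3 was called beside Itgb4 and Lama3, and Itga1 and Itga8 were not. The Lama3 call was lost when 1 array was left out, at 0.70, 0.70 and 0.76 without Comma-D replicates 1, 2 and 3 and at 0.74 and 0.57 without 1:50 erbB2+ replicates 1 and 2. The arrays of Itga1 in the 1:50 erbB2+ fraction were 6.49, 6.94 and 6.43, between those of the lines. On a scale from Comma-D (0%) to MMTV-neu (100%), the mean of this fraction stood at 3.46% for Itgb1, -9.39% for Itga6, -63.1% for Itgb4, 41.4% for Itga7 and 48.5% for Itga1.

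The erbB2- fraction of the same 1:50 co-culture gave nearly the same picture. It was higher than Comma-D in 1 gene and lower in 1, where 1.68% of all genes were called (0.592% higher, 1.08% lower): Itgb4 (0.71, SE 0.17, limma adjusted p = 0.0413) and Itga8. The Itgb4 call was lost without any Comma-D array (0.71, 0.69 and 0.74 without replicates 1, 2 and 3) and without 1:50 erbB2- replicate 1 (0.62) or 2 (0.69), each of which left a count of 1. Lama3 (0.66, adjusted p = 0.102) and Lamb3 (0.68, adjusted p = 0.296) were not called.

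Within the 1:50 co-culture, no integrin or laminin gene was called between the erbB2+ and erbB2- fractions: 0 of 36 by limma, where 0.01% of all genes were called (0.01% higher, 0% lower), and 0 also in each other fit that was run. At an unadjusted p under 0.05 there were 3, Itga1 (-0.57), Itga2 (0.40) and Itga7 (-0.35). The interval of the difference was -0.60 to 0.45 for Itga6, -0.71 to 0.24 for Itgb1 and -0.15 to 0.56 for Itgb4, and widest for Itga5 (-1.11 to 0.40). Of the 8 luminal markers 7 were not called between the same fractions, and the keratin Krt8 was higher by 2.47 (SE 0.19, limma adjusted p = 7.09e-06). A difference of that size could thus be called at this number of arrays. Krt8 does not show whether differences as small as those of the integrin and laminin genes could be.

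The fractions of the 1:1 co-culture were far apart instead. The erbB2+ fraction was higher than the erbB2- fraction in 16 and lower in 15 of 36 genes, where 56.1% of all genes were called (35.2% higher, 21% lower). All of the laminin-binding chains were lower, 5 of 5 with a median of -1.27 on the deposited scale, Itga7 turning to 0.36 under centring. All genes in the highest bin of level had a median of -0.72. Itgb1 differed by -1.75 (SE 0.23, limma adjusted p = 4.3e-05), Itgb5 by -1.67 (SE 0.17, adjusted p = 5.85e-06), Itga5 by -1.64 (SE 0.36, adjusted p = 0.00176), Itga1 by -1.45 (SE 0.19, adjusted p = 4.47e-05) and Itga6 by -1.44 (SE 0.25, adjusted p = 0.000401). The broad laminin chains Lamc1 (-1.19), Lamb1 (-1.15) and Lama5 (-0.96) were lower as well, and all 7 leukocyte chains higher. Basal markers differed the same way (4 of 7 lower, 1 higher) and of the leukocyte markers 8 of 13 were higher, 1 lower and 4 not called; their part was not tested. Itgav (0.14), Itgb3 (0.38), Lamb3 (0.062) and Lamb2 (0.43) also turned under centring, and Lamb2 (0.13) under quantile normalization. Under centring the all-gene median shifted by 0.76, with 20 higher and 7 lower and the higher share of all called genes going from 62.7% to 93.4%. Without 1:1 erbB2- replicate 3 the count of 31 was 18.

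The 1:1 erbB2- fraction also stood apart from Comma-D, though both are called normal. It was higher in 5 and lower in 8 of the 36 genes. The share called, 36.1%, was near that of all genes, 35.7% (14.9% higher, 20.9% lower). Itgb8 (2.83-fold), Itga8, Itga7 (-0.90, SE 0.16, limma adjusted p = 0.00118) and Lama4 (-0.85, SE 0.14, adjusted p = 0.000653) were lower by the largest amounts. Itga2 (0.67, SE 0.16, adjusted p = 0.00671), Lama3 (0.52), Lamc3 (0.50), Itga9 (0.49) and Itga10 (0.44) were higher. The calls of 4 of these ended without single arrays: Lama3 without Comma-D replicate 1 (0.50), 2 (0.50) or 3 (0.56) or 1:1 erbB2- replicate 2 (0.29), Lamc3 without Comma-D replicate 1 (0.45) or 1:1 erbB2- replicate 1 (0.32), Itga9 without Comma-D replicate 2 (0.46) or 1:1 erbB2- replicate 1 (0.27), and Itga10 without Comma-D replicate 1 (0.49), 2 (0.41) or 3 (0.42) or 1:1 erbB2- replicate 1 (0.23) or 2 (0.47). Replicate 1 of this fraction carried the higher levels of Itga2 (6.86, against 6.36 and 6.15) and Itga10 (6.90, against 6.41 and 6.13), and it was the array with the narrowest spread of its group. The count of 13 was 6 without that array, without Comma-D replicate 1 or without Comma-D replicate 2, and 7 without Comma-D replicate 3. Under centring the all-gene median shifted by 0.38, with 16 higher and 2 lower (higher share of all called genes 41.6% to 89.8%), and quantile normalization 4 and 4 (57.3%).

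Between the erbB2+ fractions, the ratio of the co-culture went with large differences, over all genes as well as in adhesion genes. The 1:50 fraction was higher than the 1:1 fraction in 16 and lower in 16 of 36 genes, where 71.4% of all genes were called (27.4% higher, 44% lower). A change of at least 2-fold was called in 11 genes that were higher and 0 that were lower (15.7% of all genes in either direction, 2601 of them higher and 526 lower). These were the laminin-binding Itga6 (4.9-fold), Itgb1 (3.73-fold), Itgb4 (3.26-fold) and Itga3, the RGD receptor chains Itga5 (4.02-fold), Itgb5 (3.77-fold) and Itgb8 (3.11-fold), and Lamc1, Lama5, Lamb3 and Lamb1. On the deposited scale 5 of 5 laminin-binding chains were higher, with a median of 1.71; Itga7, the least changed of them (0.75), turned to -0.14 under centring, as did Itgav (-0.24), Lama4 (-0.32) and Lamb2 (-0.14); under quantile normalization Itgav stood at -0.011. Of the basal markers 5 of 7 were higher and 1 lower in the same comparison, and of the leukocyte markers 1 of 13 was higher and 12 lower; their part was not tested.

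Lamc3 (-0.85), Itga9 (-0.84), Itga10 (-0.74) and Itgb2 (-0.73) were the largest of the genes that were lower. Read against genes of like level (median 0.97 in the highest bin), Itga6 deviated by 1.33 from the median of its bin, Itgb8 by 1.22, Itga1 by 1.21 and Lamc3 by -1.02. The comparison shares the 1:50 erbB2+ arrays with those against MMTV-neu and Comma-D, so the counts are not independent of each other. Under centring the all-gene median shifted by -0.89, with 9 higher and 20 lower (higher share of all called genes 38.4% to 9.54%).

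The difference between the ratios was itself larger in the erbB2+ than in the erbB2- fractions for 5 of the 36 genes and smaller for 0, where 2.75% of all genes were called in this interaction (2.45% higher, 0.301% lower). The 5 were Itgb5 (1.34, SE 0.23, limma adjusted p = 0.00815), Itgb4 (1.16, SE 0.24, adjusted p = 0.0182), Itga3 (1.10, SE 0.23, adjusted p = 0.0184), Itgb1 (1.52, SE 0.32, adjusted p = 0.0193) and Itga6 (1.36, SE 0.35, adjusted p = 0.0477), so 4 of the 5 laminin-binding chains and the vitronectin receptor chain. All 5 lay in the highest bin of level, where the interaction over all genes had a median of 0.49 (middle 50% 0.04 to 0.94). For Itgb1 the 1:50 minus 1:1 difference was 1.90 (95% interval 1.42 to 2.38) in the erbB2+ and 0.38 (-0.10 to 0.86) in the erbB2- fractions. For Itga7 it was 0.75 and 0.71, an interaction of 0.05 (-0.44 to 0.53). Lamb1 (0.84, adjusted p = 0.0535), Lama5 (0.90, adjusted p = 0.0618) and Lamc1 (1.04, adjusted p = 0.072) came next and were not called.

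The count of 5 was unstable. With the replicate number as a block it was 10, and in a block fit of the co-culture arrays alone 11. In a fit of the compared groups only it was 0. Without 1 array it was 1 (without 1:50 erbB2- replicate 3, 1:1 erbB2- replicate 2 or 1:50 erbB2+ replicate 2), 2 (without 1:1 erbB2- replicate 3 or 1:1 erbB2+ replicate 1), 3 (without 1:50 erbB2- replicate 2 or 1:50 erbB2+ replicate 3), 10 (without 1:50 erbB2+ replicate 1) or 20 (without 1:1 erbB2- replicate 1). The call of Itgb5 held without any single array. That of Itga6 ended without each co-culture array (down to 1.09) except 1:1 erbB2- replicate 1, 1:50 erbB2+ replicate 1 and 1:1 erbB2+ replicate 3. That of Itga3 ended (0.95 to 1.08) without replicate 2 or 3 of the 1:50 erbB2-, 1:1 erbB2- or 1:50 erbB2+ fraction or 1:1 erbB2+ replicate 1. That of Itgb1 ended (1.37 to 1.49) without 1:50 erbB2- replicate 3, 1:1 erbB2- replicate 2 or 3 or 1:50 erbB2+ replicate 2, and that of Itgb4 (0.99 to 1.07) without 1:50 erbB2- replicate 3, 1:1 erbB2- replicate 2, 1:50 erbB2+ replicate 2 or 1:1 erbB2+ replicate 1. Under centring, which shifted the all-gene median by -0.55, the differences of all 5 stayed positive but the split was 3 higher and 15 lower (higher share of all called genes 89.1% to 3.09%), and quantile normalization gave 6 higher and 0 lower (70.9%).

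**Figure D4:**
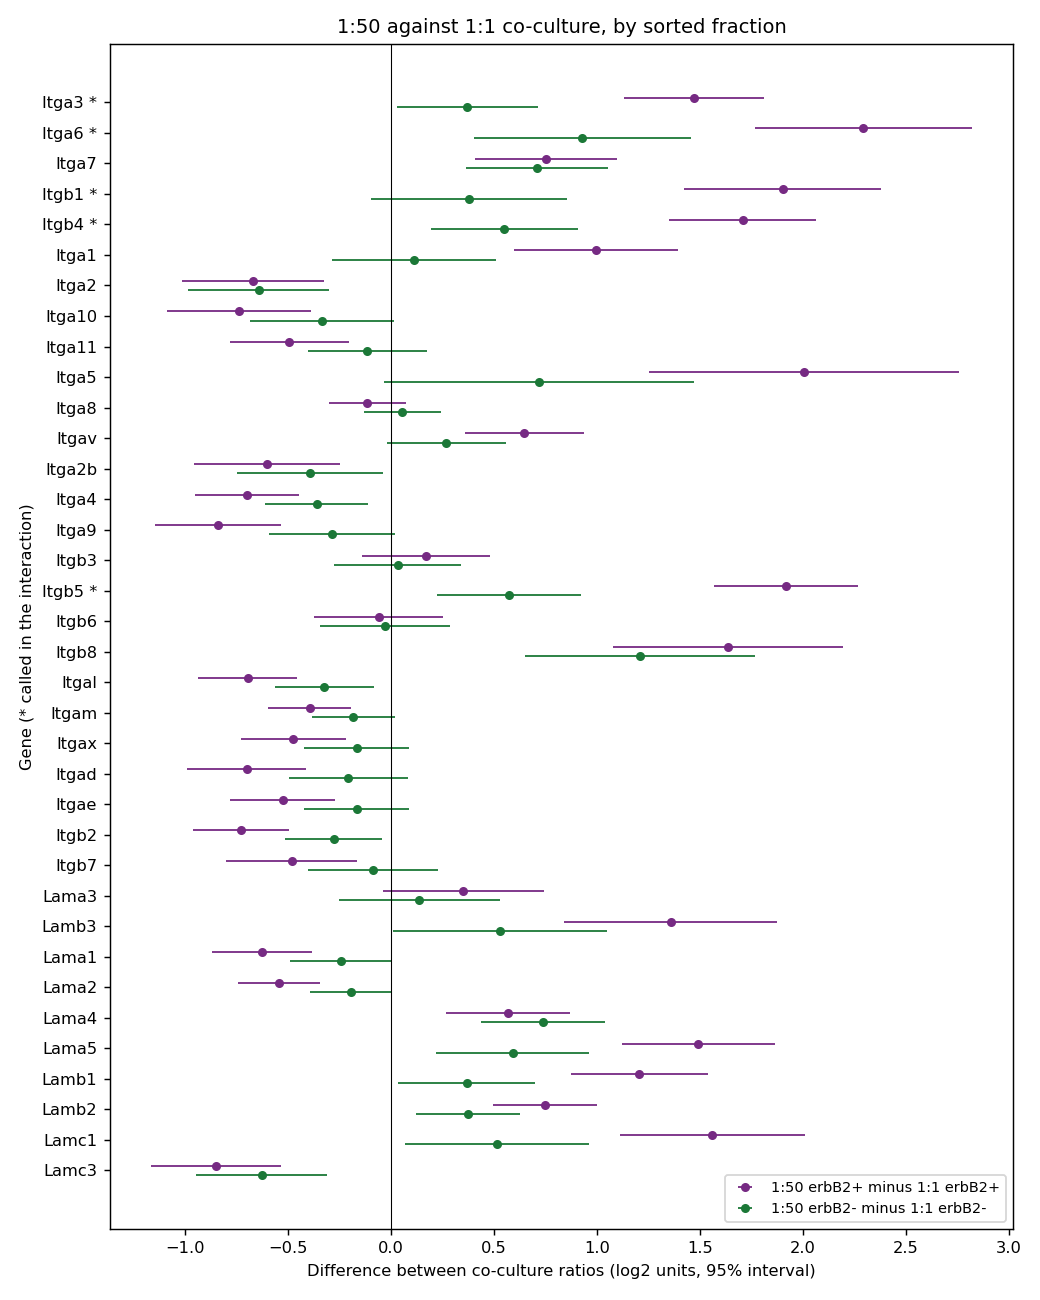
Difference between the 1:50 and 1:1 co-cultures in log2 units with its 95% interval, in the erbB2+ and in the erbB2- fractions (horizontal axis), for the 36 genes (vertical axis); an asterisk marks the 5 genes called in the interaction. For Itgb1, Itgb5, Itga6, Itgb4 and Itga3 the erbB2+ difference exceeds the erbB2- difference, from 1.90 against 0.38 for Itgb1 to 2.29 against 0.93 for Itga6, on the deposited scale.

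Proteins that work with these receptors were read from lists of hemidesmosome and co-receptor genes, basement membrane genes, soluble and matrix ligands, and adaptors of the inner cell surface. Of the 10 hemidesmosome and co-receptor genes, 9 fell and 1 rose in MMTV-neu against Comma-D, where 30.4% of all genes fell and 56.4% rose. In the 1:50 against the 1:1 erbB2+ fraction 9 were higher and 0 lower, where 27.4% of all genes were higher and 44% lower. The 10 genes are bright, with mean levels per array of 9.64 to 9.69 in Comma-D. Their median differences were -1.957 and 1.496, beside -1.44 and 0.97 for all genes in the highest bin of level. Both lay within the middle 50% of that bin, which ran from -2.48 to -0.48 and from 0.31 to 1.51. Under centring 5 of the 9 that fell between the lines turned (Plec, Dst, Col17a1, Sdc1 and Rpsa) and 2 genes were called higher and 4 lower; none turned under quantile normalization. Cd151, the tetraspanin that binds alpha-3 beta-1 and alpha-6 beta-4, differed by -4.44 between the lines (SE 0.24) and by 1.96 between the erbB2+ fractions. Dst, the plakin linking beta-4 to keratin, gave -1.95 and 1.59, and Col17a1, the transmembrane collagen of the hemidesmosome, gave -1.78 and 1.66; between the lines they turned to 0.23 and 0.40 under centring. The laminin receptor Dag1 (dystroglycan) gave -2.72 and 1.75, and Bcam, the receptor of laminin alpha-5, was the member that rose between the lines (0.99). In the 1:50 erbB2+ fraction against Comma-D 0 of the 10 were called, where 5.71% of all genes were. In the interaction 3 were higher, Cd151 (1.35), Dst (1.19) and Sdc4 (0.93), where 2.75% of all genes were called. The median interaction of the 10 was 0.86, beside 0.49 for all genes in the highest bin of level. Under each of centring and quantile normalization 1 of the 10 was called.

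The basement membrane genes did not move as a block. Of 15, 9 rose and 3 fell in MMTV-neu against Comma-D (all genes 56.4% and 30.4%). The collagen IV chains Col4a1 (0.25) and Col4a2 (-0.14) and the laminin-binding nidogen Nid1 (-0.11) were not called between the lines, where Lama5, Lamb1 and Lamc1 fell. Sparc (-5.10), Agrn (-2.22) and the perlecan gene Hspg2 (-1.02, turning to 1.17 under centring) were the 3 that fell. Npnt, the nephronectin that serves as a ligand of alpha-8 beta-1, was the only gene of the list called in the 1:50 erbB2+ fraction against Comma-D (0.49), where Itga8 itself was lower; the Npnt call was lost under centring (0.75) and quantile normalization (0.41).

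Of the 11 non-laminin ligands 4 rose and 6 fell between the lines (all genes 56.4% and 30.4%). Fn1, the fibronectin gene, fell most (-6.05), and Thbs1 (-4.70) and Tnc (-3.58) fell with the RGD receptor chains too. Vtn, the vitronectin gene, rose (1.44) while its receptor chain Itgb5 fell. In the 1:50 erbB2+ fraction against Comma-D, Tnc was higher (1.05) and Ccn1 lower (-1.03, not called under centring at -0.78). Of the 19 adaptors 16 fell and 2 rose between the lines (all genes 30.4% and 56.4%), and 16 were higher and 2 lower in the 1:50 against the 1:1 erbB2+ fraction (all genes 27.4% and 44%). The adaptors are bright as well, with mean levels per array of 9.49 to 9.51 in Comma-D. Their median differences were -1.27 and 1.07, beside -1.44 and 0.97 for all genes in the highest bin of level. Under centring 8 of the 18 called adaptors turned between the lines and 4 of the 18 between the fractions, and under quantile normalization 3 and 1. Parva (-4.22 and 1.98) and Flna (-3.99 and 2.02), which tie beta chains to actin, had the largest of these, and Tns1 (1.78) and Fermt3 (1.17), the kindlin of blood cells, were the 2 adaptors that rose between the lines. Directions of these lists are those of the deposited scale.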

How the data were processed

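RNA of 18 samples, 3 in each of 6 groups, was measured on whole-transcript mouse gene arrays. The authors deposited log2 values of 35556 probe sets, and the submitters' processing notes name RMA, R 3.1.2 and limma. How probes were summarised and filtered is not given in the sources used here. RMA sets probe values on a common scale, yet the spread still differed between arrays. Arrays give no depth, so their number limits the precision.

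The platform annotation gave a single gene for 21789 probe sets and several for 1621, which were left out. The RefSeq table matched 21698, and each of the 19938 genes was read from its probe set with the highest mean. No filter on low values was applied. The lists and members were chosen with earlier results of these data known. All 36 members are accounted for. Array values are given for most members called with a difference of at least 1 log2 unit, up to 5 each way per comparison. Most members called in comparisons with fewer calls are given in the same way. SE and adjusted p are printed for many of these differences but not all. Other members, Itga11 among them, are given by differences, means, counts or ranges.

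Differences were tested two-sided with limma 3.58.1 in R 4.3.3 (lmFit, eBayes, Benjamini-Hochberg over all genes) in a single fit of 18 arrays with 12 residual degrees of freedom, after a test on simulated data. Same-numbered arrays of the co-culture fractions deviated together in the 3 comparisons between fractions. Their correlations were 0.148 to 0.515, 0.307 to 0.702 and 0.218 to 0.628. Arrays that differed in both number and group had a median correlation of -0.024, but reached 0.586. The titles give replicate numbers and no shared culture or sort, so a pairing is possible but not established. The main fit did not use it. The alternatives were centring on reference genes, quantile normalization, the replicate block, fits of the compared groups only, the lowest 40% of genes left out, averaging all probe sets of a gene, trend and robust priors, and each array left out. A further 3 were chosen after seeing the data. They were leaving out replicate 1 of the 1:1 erbB2- and 1:50 erbB2+ fractions, leaving out MMTV-neu, and a block fit of the 12 co-culture arrays.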

Additional observations from a re-analysis of the deposited data

Results flagged for a closer look

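In 5 genes the difference between the 1:50 and the 1:1 co-culture differed between the erbB2+ and the erbB2- fractions by limma's interaction test. The interaction was 1.10 for Itga3, 1.36 for Itga6, 1.52 for Itgb1, 1.16 for Itgb4 and 1.34 for Itgb5, each with the larger difference in the erbB2+ fractions. Over all genes in the highest bin of level, where these 5 lay, its median was 0.49. The adjusted p was 0.0184 for Itga3, 0.0477 for Itga6, 0.0193 for Itgb1, 0.0182 for Itgb4 and 0.00815 for Itgb5. With 3 arrays in each group, no group was tested for a single array standing apart.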

How the results depend on the processing

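The numbers of genes called kept within 1.5 times of those reported, except as follows. Centring on reference genes gave 30 for the 1:1 erbB2+ fraction against MMTV-neu, 1 for the 1:50 erbB2- fraction against Comma-D and 18 for the interaction. Fits of the compared groups only gave 20 for the 1:1 fractions, 5 for 1:1 erbB2+ against MMTV-neu, 6 and 5 for the 1:1 and 1:50 erbB2- fractions against Comma-D, and 0 for the interaction. Leaving out the lowest 40% of genes gave 5, 1 and 8 for 1:1 erbB2+ against MMTV-neu, 1:50 erbB2- against Comma-D and the interaction. Quantile normalization gave 19 for the 1:1 fractions and 8 for 1:1 erbB2- against Comma-D, and trend and robust priors 1 for 1:50 erbB2- against Comma-D. The replicate block gave 10 for the interaction (11 in the 12 co-culture arrays) and changed no other call that was followed. Leaving out both replicate 1 arrays gave 7 for 1:1 erbB2- against Comma-D and 27 for the interaction, and leaving out MMTV-neu 1 for 1:50 erbB2- against Comma-D. With each array left out in turn the counts ran from 33 to 34 between the lines, 33 to 34 and 5 to 12 for the 1:50 and 1:1 erbB2+ fractions against MMTV-neu, and 3 to 4, 1 to 3 and 6 to 16 for 1:50 erbB2+, 1:50 erbB2- and 1:1 erbB2- against Comma-D. They ran from 31 to 33 between the erbB2+ fractions, 0 to 0 and 18 to 32 within the 1:50 and 1:1 co-cultures, and 1 to 20 for the interaction. Among the 81 pairs of a gene and a comparison that were followed, centring turned Itga3 (0.13), Itga7 (0.87), Itgb4 (0.73), Itga1 (0.19), Itgav (1.14), Lama5 (0.45), Lamb1 (0.10) and Lamc1 (0.085) between the lines, and Itga3 (-0.10), Itga1 (-0.91), Lamb3 (-0.57), Lama5 (-0.13) and Lamb1 (-0.082) between 1:50 erbB2+ and MMTV-neu; quantile normalization turned Itgav (0.031) between the lines. Among all the called integrin and laminin genes, followed or not, 13 turned between the lines and 10 between 1:50 erbB2+ and MMTV-neu under centring. Under quantile normalization 3 and 2 of them turned. Of the 81 pairs, 49 kept direction and call under centring, 72 under quantile normalization and 81 under the replicate block; the cause was not tested. Values under the array medians limit what can be said of the leukocyte chains.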

Other observations

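Itgad, a leukocyte alpha chain, is read by 2 single-gene probe sets. The probe set used gave means of 6.26 in Comma-D and 7.29 in MMTV-neu, and the other gave 5.42 and 6.74, so both were higher in MMTV-neu at different levels. Endothelial markers, which many alpha chains accompany in vessels, were higher in MMTV-neu than in Comma-D in 8 of 8 genes on the deposited scale, with 1 of 8 above the array medians in Comma-D and 3 in MMTV-neu. Of all genes 56.4% were higher and 30.4% lower in this comparison. The endothelial median difference was 0.85, where the medians of all genes in level bins 3 and 5 were 0.83 and 0.95. Mean levels of these markers per array were 5.42 to 5.45 in Comma-D and 6.19 to 6.37 in MMTV-neu. Among fibroblast markers 4 of 8 were higher and 4 lower between the lines on that scale, with Pdgfra at -3.61, Pdgfrb at -3.70 and Dcn at -2.70, and Thy1 at 1.96 in the other direction.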
